A study of Homo sapiens with 6 samples.

Results

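The HOXB cluster is a row of homeobox genes on chromosome 17, and its SMAD2/3 binding was described here from peaks whose midpoint lay on hg19 chromosome 17 from 46560000 to 46815000. This window of 255 kb runs from HOXB1 to HOXB13 with its flank. It held 44 of the 20600 peaks listed in the series. Hs578T gave 21 of these at 16 h and 14 at 1.5 h, and BT549 gave 3 at 16 h and 6 at 1.5 h. The window was chosen by its high number of Hs578T peaks at both times, so its peak counts and what follows from them are given as a description, without a test.

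Hs578T and BT549 are established human cell lines of triple-negative breast cancer, a form that lacks oestrogen receptor, progesterone receptor and HER2 amplification. All 4 libraries came from cells stimulated with TGFβ3 and were precipitated with an antibody against SMAD2/3, with 1 library per line and time. Hs578T was grown in DMEM and BT549 in RPMI-1640, both with serum and insulin, and the TGFβ3 dose is not given in the sources used here. Each line also has 1 untreated input DNA sample, not analysed here, and no ChIP library of unstimulated cells was analysed here. The Hs578T lists had 1849 peaks at 16 h and 1373 at 1.5 h, and the BT549 lists had 8153 at 16 h and 9225 at 1.5 h. They carry no read totals, so depth is unknown. Without replicates, no difference between lines or times could be set against a replicate error.

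HOX genes encode transcription factors that bind DNA through a homeodomain and give cells their position along the body axis. Within a cluster the genes stand in the order in which they are used from head to tail. SMAD2 and SMAD3 are the factors that activated TGFβ receptors phosphorylate, after which they enter the nucleus with SMAD4 and bind DNA, mostly beside other factors. HOXB1 and HOXB2, at the head end of the cluster, act in the hindbrain. HOXB4 is known for expanding blood stem cells, and HOXB13, at the tail end, acts in the prostate. HOXB7 and HOXB9 are known from breast cancer, and their overexpression can promote an epithelial to mesenchymal transition.

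In the RefSeq gene table, which is on another build, the 10 HOXB genes follow each other on chromosome 17 from HOXB1 through HOXB9 to HOXB13. MIR10A is listed next after HOXB4 and before HOXB5, and MIR196A1 between HOXB9 and HOXB13. Several long non-coding RNA genes, among them HOXB-AS1 to HOXB-AS4, LINC02086 and LINC03057, are listed among the coding genes in order of start. An hg19 annotation was not used here, so the peaks are placed by position within the window and are not assigned to single genes.

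The 5p microRNAs of MIR10A and MIR196A1 are shown as examples of products of the same stretch of chromosome as the peaks. MIR3185, listed next before HOXB13, is a further microRNA gene there. The capitals mark the seed, bases 2 to 8, through which a microRNA pairs with its targets, and the sequences are from RefSeq on GRCh38.p14. Their genes lie on the minus strand, miR-10a-5p at chr17:48579904-48579926 and miR-196a-5p at chr17:48632532-48632553. Their seeds differ. In mouse embryos, miR-196a is known to direct cleavage of the Hoxb8 transcript.
hsa-miR-10a-5p: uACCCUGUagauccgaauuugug
hsa-miR-196a-5p: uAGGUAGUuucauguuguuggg

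Of the 10 HOXB genes, HOXB1 was matched in the RefSeq promoter table, which holds 250 bases before to 50 bases after each start. A second promoter, of the long non-coding RNA gene LINC02086, is shown because, of 12 entries between HOXB1 and HOXB13, it had the most SMAD words, and it was chosen after these counts were seen. Both are on GRCh38.p14. HOXB1 is at chr17:48530962-48531261 on the minus strand and LINC02086 at chr17:48646509-48646808 on the plus strand. Capitals mark CAGAC on either strand, the short SMAD word, and GGCGCC, a GC-rich SMAD word.
HOXB1 promoter: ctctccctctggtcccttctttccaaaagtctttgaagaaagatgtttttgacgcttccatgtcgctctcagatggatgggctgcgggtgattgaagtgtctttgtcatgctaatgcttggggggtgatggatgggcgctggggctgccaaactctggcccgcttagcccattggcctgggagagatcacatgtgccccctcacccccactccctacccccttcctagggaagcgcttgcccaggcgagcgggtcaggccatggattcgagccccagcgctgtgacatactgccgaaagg
LINC02086 promoter: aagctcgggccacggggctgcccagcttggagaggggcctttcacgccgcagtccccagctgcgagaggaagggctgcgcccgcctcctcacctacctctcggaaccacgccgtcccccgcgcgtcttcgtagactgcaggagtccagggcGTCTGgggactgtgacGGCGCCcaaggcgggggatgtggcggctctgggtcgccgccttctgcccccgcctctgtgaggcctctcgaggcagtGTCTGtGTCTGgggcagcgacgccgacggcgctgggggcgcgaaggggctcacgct

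The LINC02086 window held CAGAC 3 times and GGCGCC 1 time, without overlap, and the HOXB1 window held neither. Of the 12 entries, 7 held CAGAC on either strand, against 45.3% of 35116 promoters of the same length, and 2 held GGCGCC, against 19.2%. Both entries with GGCGCC are starts of LINC02086. HOXB-AS4, LINC02086 and PRAC2 have 2 entries each, so the entries are not all of separate genes. The full SMAD palindrome GTCTAGAC and the AP-1 word TGANTCA were in 0 of the 12, against 0.202% and 7.71% of all promoters. A word in a promoter is a description and no binding site, and these windows could not be set against the peaks.

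SMAD2/3 peaks of Hs578T stood densely in the HOXB cluster and alone on their part of chromosome 17. At 16 h the window held 82.4 peaks per Mb, against 0.600 per Mb over the rest of the genome, a ratio of 137. At 1.5 h it held 54.9 per Mb, against 0.446, a ratio of 123. The nearest Hs578T peaks outside it at 16 h ended at 42976907 and began at 48255790, so the 21 peaks of the cluster were the ones listed in 5.28 Mb of chromosome 17. At 1.5 h the nearest ended at 44121482 and began at 47074412, and the 14 peaks were the ones listed in 2.95 Mb. The window held 1.14% of the Hs578T list at 16 h (0.704 to 1.73, exact 95% binomial interval) and 1.02% at 1.5 h (0.559 to 1.70). Intervals here and below cover counting error only. They treat each peak as separate, also where calls lie close together, and do not cover the choice of the window.

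In BT549 the cluster held fewer peaks, although the BT549 lists are the longer ones, and it still lay above the rest of the genome. The window held 11.8 peaks per Mb at 16 h, against 2.67 over the rest, a ratio of 4.40. At 1.5 h it held 23.5 per Mb, against 3.03, a ratio of 7.78. It held 0.0368% of the BT549 list at 16 h (0.00759 to 0.107) and 0.0650% at 1.5 h (0.0239 to 0.142). The neighbouring chromosome was not empty in BT549. At 1.5 h a peak with a score of 99.4, from 46559758 to 46559877, lay just outside the lower edge of the window, and the peak just inside it, from 46560891 to 46561118, scored 71.3. Above the window the next BT549 peaks stood 234.7 kb away at 16 h and 41.6 kb away at 1.5 h.

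When the genome was cut into 11963 tiles of 255 kb, 1 of them the window itself, 1 tile held more Hs578T peaks at 16 h than the HOXB window, with 22. At 1.5 h, 2 tiles held more and the highest count was 23. Of all tiles, 10647 at 16 h and 10881 at 1.5 h held no Hs578T peak. In BT549, 470 tiles at 16 h and 151 at 1.5 h held more peaks than the HOXB window. With peaks within 500 bp counted as 1, the 21 and 14 Hs578T peaks became 17 and 13, and no tile held more than the HOXB window at 16 h. At 1.5 h, 2 tiles still held more, and the highest count was 17. Tiles were aligned to the window on chromosome 17 and to the chromosome start elsewhere, so other clusters can be split between tiles.

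**Figure D1:**
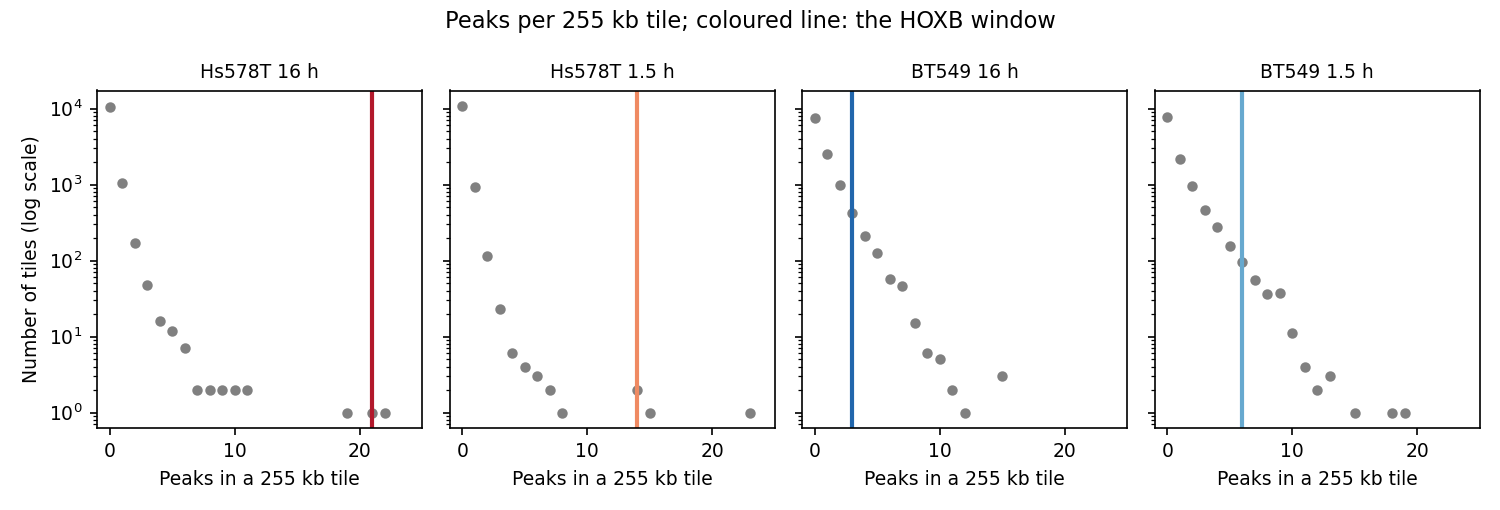
Number of genome tiles of 255 kb (log scale) against the number of SMAD2/3 peaks in a tile, for each library. The coloured line marks the HOXB window, at 21, 14, 3 and 6 peaks from left to right, and it stands at the far end of the tiles in both Hs578T lists but not in BT549.

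Along the window, the Hs578T peaks were concentrated in its middle, which was not placed against the genes. The stretch from 46621803 to 46724381, 102.6 kb long, held 19 of the 21 peaks at 16 h and 13 of the 14 at 1.5 h. At both times a peak also lay near the lower edge, from 46570016 to 46570326 over both lists, with a score of 125 at 16 h and 56.3 at 1.5 h. Above 46724381, over 90.6 kb toward the HOXB13 end, 1 peak was listed at 16 h, from 46785335 to 46785440 with a score of 59.3, and none at 1.5 h. The median gap between neighbouring peaks of the window was 3.45 kb at 16 h and 6.99 kb at 1.5 h, against a median gap of 606 kb and 980 kb over the whole lists. BT549 peaks ended at 46683067, and beyond that point 7 Hs578T peaks were listed at 16 h and 4 at 1.5 h.

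**Figure D2:**
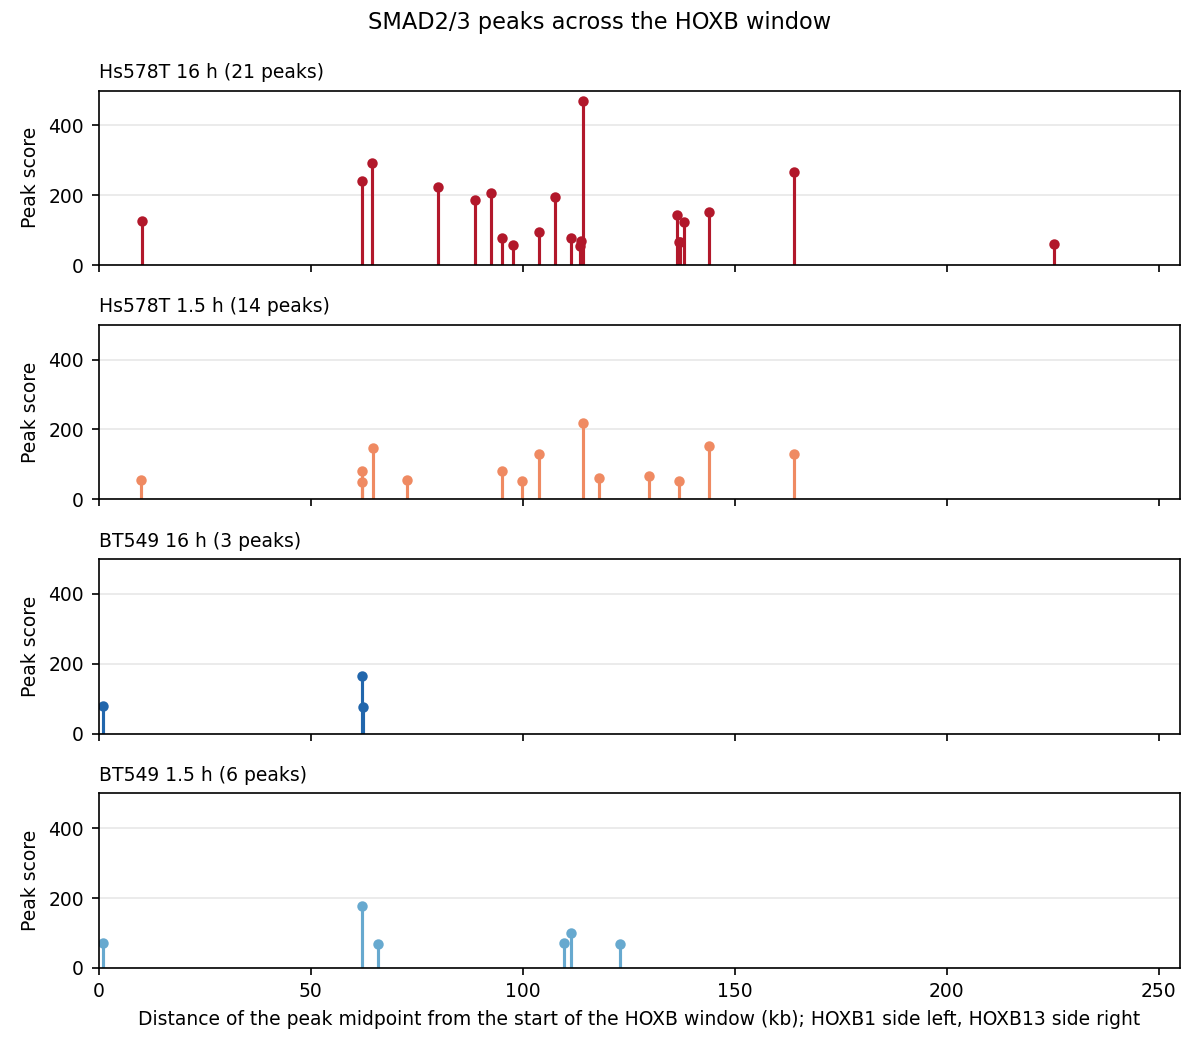
Score of each SMAD2/3 peak against the distance of its midpoint from the start of the HOXB window in kb, with 1 panel per library. The highest Hs578T peak stands at 114.3 kb at 16 h and 114.2 kb at 1.5 h, and the place with a peak in every library stands at about 62.1 kb.

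The score of a peak is the authors' peak-caller value, which grows with depth as well as with enrichment, so ranks within each list are given beside it. The strongest HOXB site in Hs578T lay near the middle of the window, from 46673930 to 46674578 at 16 h and from 46674016 to 46674446 at 1.5 h. Its scores were 471 and 219, and it ranked 29 of 1849 at 16 h and 42 of 1373 at 1.5 h. At 16 h it had lesser peaks close by on its lower side, from 46673437 to 46673581 with a score of 54.9 and from 46673621 to 46673889 with 68.7. No BT549 peak was listed there: the nearest was 51510 bp away at 16 h and 2405 bp away at 1.5 h.

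The next sites of Hs578T by score at 16 h were also listed at 1.5 h. The peak from 46624292 to 46624786 scored 293 at 16 h (rank 79), and its 1.5 h peak scored 146 (rank 87). The peak from 46723893 to 46724381 scored 266 (rank 100), and its 1.5 h peak scored 129 (rank 110). The peak from 46621913 to 46622319 scored 240 (rank 117), and at 1.5 h it was listed as 2 peaks, with scores of 81.26 and 50.02. The last of these has the lowest score of the whole 1.5 h list.

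Further sites of both times were spread over the same stretch. The site from 46703766 to 46704188 had nearly the same score at both times, 151.59 at 16 h and 151.86 at 1.5 h, with ranks of 204 and 79. The site from 46663744 to 46664026 scored 93.3 at 16 h and 131 at 1.5 h, and that from 46654962 to 46655276 scored 78.2 and 80.5. The site from 46696782 to 46696970 scored 67.2 and 51.3. Merging peaks that touched thus gave 9 regions listed at both times in Hs578T, of 25 regions with any Hs578T peak, against 350 of 2792 over the whole series.

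In Hs578T, 12 of the 21 window peaks at 16 h scored at least 100, against 18.5% of the peaks outside the window, and 5 of the 14 at 1.5 h did, against 11.8%. In BT549, 1 of the 3 window peaks at 16 h scored at least 100, against 33.4% outside, and 1 of the 6 at 1.5 h did, against 41.9%. The median rank of the window peaks stood at 13.6% of the list in Hs578T at 16 h and 26.6% at 1.5 h, where 0 is the highest score and 50% the middle of a list. In BT549 it stood at 48.6% at 16 h and 70.4% at 1.5 h. In Hs578T the HOXB peaks thus lay mostly in the upper part of their lists, and in BT549 most lay near the middle or below. The median width of the window peaks was 327 bp in Hs578T at 16 h and 164.5 bp at 1.5 h, against 150 bp and 141 bp for the rest of these lists. In BT549 it was 345 bp at 16 h and 234.5 bp at 1.5 h, against 240 bp and 238 bp.

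**Figure D3:**
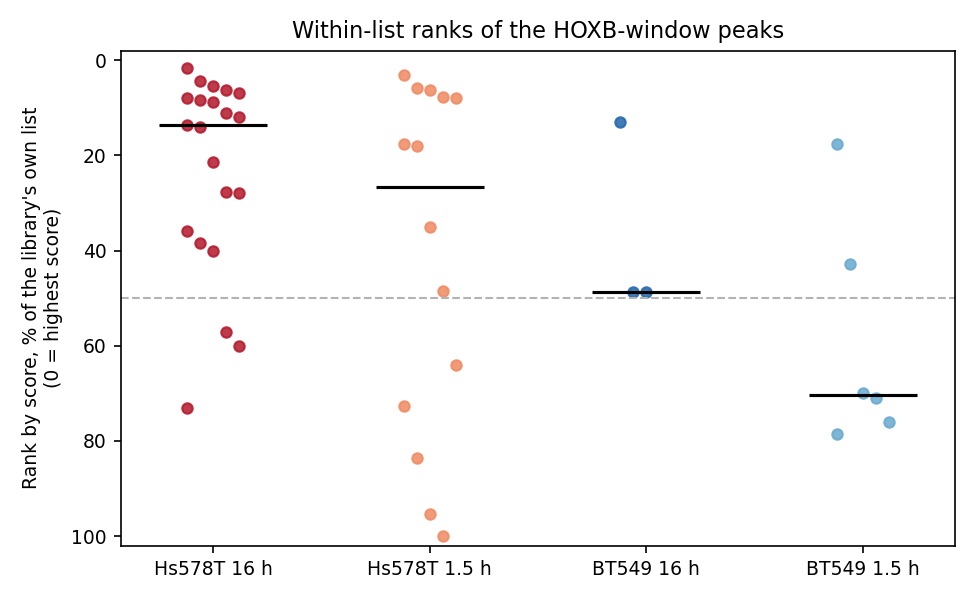
Rank of each HOXB-window peak by score, in percent of its own list (0 is the highest score), for each library. Black bars are medians, at 13.6%, 26.6%, 48.6% and 70.4% from left to right, and the dashed line marks the middle of a list.

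Between the times, most Hs578T peaks of 1.5 h overlapped a 16 h peak, and a smaller share of the 16 h peaks overlapped a 1.5 h peak. Of the 14 peaks at 1.5 h, 10 overlapped a 16 h peak by at least 1 bp, or 71.4% (41.9 to 91.6), against 27.8% of the whole list. Of the 21 peaks at 16 h, 9 overlapped a 1.5 h peak, or 42.9% (21.8 to 66.0), against 20.1% of the list. All 5 of the 1.5 h peaks that scored at least 100 were found at 16 h, where 89.1% of such peaks in the list were. Of the 12 such peaks at 16 h, 6 had a 1.5 h peak, where 64.0% of the list did. Among peaks scoring under 100, 3 of 9 at 16 h were found at 1.5 h, against 9.81% of the list, and 5 of 9 at 1.5 h were found at 16 h, against 19.5%.

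The Hs578T sites listed at 16 h without a 1.5 h peak were 12, with scores of 54.9 to 223. The strongest lay from 46639872 to 46640299, with a score of 223 (rank 129), and its nearest 1.5 h peak was 6992 bp away. It was followed by the peak from 46652418 to 46652744 with 206 (rank 147), the peak from 46667413 to 46667840 with 194 (rank 155) and the peak from 46648461 to 46648860 with 187 (rank 163). Their nearest 1.5 h peaks were 2217 bp, 3386 bp and 6101 bp away. These 4 are thus separate places and not edges of a site listed at both times.

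The other late peaks of this score lay in a cluster of calls beside the site at 46696782. The peak from 46696312 to 46696699 scored 142, that from 46697829 to 46698267 scored 124, and a weaker one from 46697107 to 46697240 scored 66.1. They stood 137 bp, 858 bp and 136 bp from the nearest 1.5 h peak. Of the 12 late peaks, 4 lay within 500 bp of a 1.5 h peak.

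The 4 Hs578T peaks listed at 1.5 h without a 16 h peak were weak, with scores of 53.8 to 65.4 and widths of 98 bp to 173 bp. The highest of them lay from 46689748 to 46689845 and ranked 482 of 1373. The others lay from 46677911 to 46678083 with a score of 61.2, from 46632732 to 46632879 with 54.6 and from 46659705 to 46659845 with 53.8. All 4 stood 1801 bp or more from a 16 h peak.

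Of the 9 overlapping Hs578T pairs of the window, 6 had the higher score at 16 h, against 74.4% of the 371 pairs of the whole lists. The scores at 16 h were 0.714 to 2.96 times those at 1.5 h, with a median of 2.01, against a median of 1.39 over all pairs. The sites at 46663744, 46654962 and 46703766 scored lower at 16 h. The depth of both libraries enters every such ratio, and its part was not tested.

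**Figure D4:**
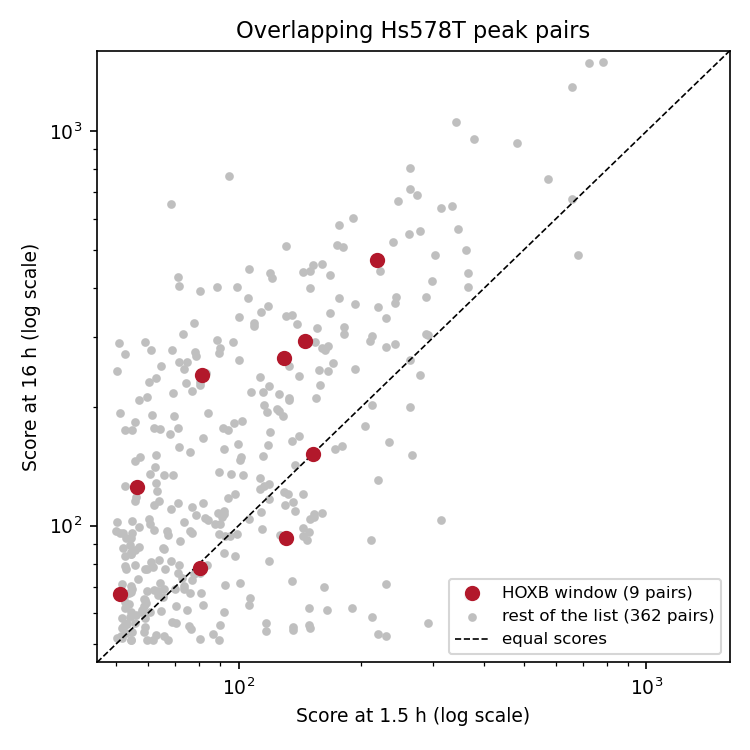
Score at 16 h against score at 1.5 h for overlapping Hs578T peak pairs, both on log scales. Red points are the 9 pairs of the HOXB window, of which 6 lie above the dashed line of equal scores, and grey points are the pairs of the rest of the genome.

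BT549 occupied 2 places of the window at both times. The stronger was the region from 46621803 to 46622419, where 16 h had peaks with scores of 166 (rank 1049 of 8153) and 77.5, and 1.5 h had 1 peak with a score of 176 (rank 1630 of 9225). The other, from 46560806 to 46561236 at the lower edge, scored 77.6 at 16 h and 71.3 at 1.5 h. All 3 peaks at 16 h overlapped a 1.5 h peak, against 46.5% of the list, and 2 of the 6 peaks at 1.5 h overlapped a 16 h peak, against 41.4%. Both 16 h peaks of the stronger region overlapped the same 1.5 h peak, so the 3 peaks and their pairs stand for 2 places. Of the 3 overlapping pairs, 1 had the higher score at 16 h, against 29.9% over all BT549 pairs. With so few peaks, the exact intervals run from 29.2% to 100% and from 4.33% to 77.7%.

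BT549 peaks listed at 1.5 h without a 16 h peak were 4, all with scores under 100. They lay from 46625845 to 46626051 with a score of 67.4, from 46669696 to 46669936 with 72.0, from 46671336 to 46671610 with 99.3 and from 46682847 to 46683067 with 68.2. No BT549 peak of the window was listed at 16 h alone.

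The lines met at 1 place at each time. The region from 46621803 to 46622419 had a peak in all 4 libraries, with highest scores of 240 in Hs578T at 16 h, 81.3 in Hs578T at 1.5 h, 166 in BT549 at 16 h and 176 in BT549 at 1.5 h. At 16 h, 1 of the 21 Hs578T peaks overlapped a BT549 peak, or 4.76% (0.120 to 23.8), against 10.3% of the list. In the other direction 2 of the 3 BT549 peaks did, against 2.17% of the list. At 1.5 h, 2 of the 14 Hs578T peaks overlapped a BT549 peak, or 14.3% (1.78 to 42.8), against 11.2%. In the other direction 1 of the 6 BT549 peaks did, against 1.59%. These shared peaks are all of the same region. The intervals count each peak as separate, so they cannot place the Hs578T shares against those of the whole lists. Among Hs578T peaks scoring at least 100, 1 of 12 overlapped BT549 at 16 h, against 19.7% of such peaks in the list. At 1.5 h, 0 of 5 did, against 29.7%. Among those scoring under 100, 0 of 9 did at 16 h, against 8.07%, and 2 of 9 at 1.5 h, against 8.69%. With scores of at least 100, with 50% of both peaks overlapping, or with lists of equal length, the lines shared 0 peaks of the window at 1.5 h, and 0 regions were listed in every library.

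A second place was shared across the times. The Hs578T peak at 16 h from 46671328 to 46671505, with a score of 78.3, overlapped the BT549 peak at 1.5 h from 46671336 to 46671610, with 99.3. At matched times, the other 20 Hs578T peaks at 16 h were 1.87 kb to 162.9 kb from the nearest BT549 peak, and the other 12 at 1.5 h were 1.08 kb to 40.9 kb away. Of the 29 merged regions of the window, 23 (79.3%) had peaks of Hs578T alone, 4 (13.8%) of BT549 alone and 2 (6.90%) of both. Over all 15867 regions of the series the shares were 15.6%, 82.4% and 1.96%. The window was chosen by its Hs578T peaks, so its high share of regions of Hs578T alone is no separate result.

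The other HOX clusters gave a like picture in Hs578T but differed in BT549. Windows of 1 Mb were compared, starting at 46 Mb on chromosome 17 (HOXB), 27 Mb on chromosome 7 (HOXA), 54 Mb on chromosome 12 (HOXC) and 176.5 Mb on chromosome 2 (HOXD). All of the Hs578T peaks of the chromosome 17 window, 21 at 16 h and 14 at 1.5 h, lay in the HOXB window, whereas 3 of the 7 BT549 peaks at 16 h and 6 of the 9 at 1.5 h did. The top HOXB score in Hs578T, 471 at 16 h, was lower than the top scores of the HOXA and HOXD windows, 1498 and 953, and higher than that of the HOXC window, 293. The same order held at 1.5 h, with 219 for HOXB, 783 for HOXA, 379 for HOXD and 155 for HOXC. Of the HOXB peaks at 16 h, 9 of 21 were found at 1.5 h, against 15 of 25 for HOXA, 10 of 19 for HOXC and 9 of 13 for HOXD. In BT549 the HOXA window held 6 peaks at 16 h and 4 at 1.5 h, the HOXC window 13 and 11, and the HOXD window 1 and 0. No test of these differences was made, since each count comes from 1 library.

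**Figure D5:**
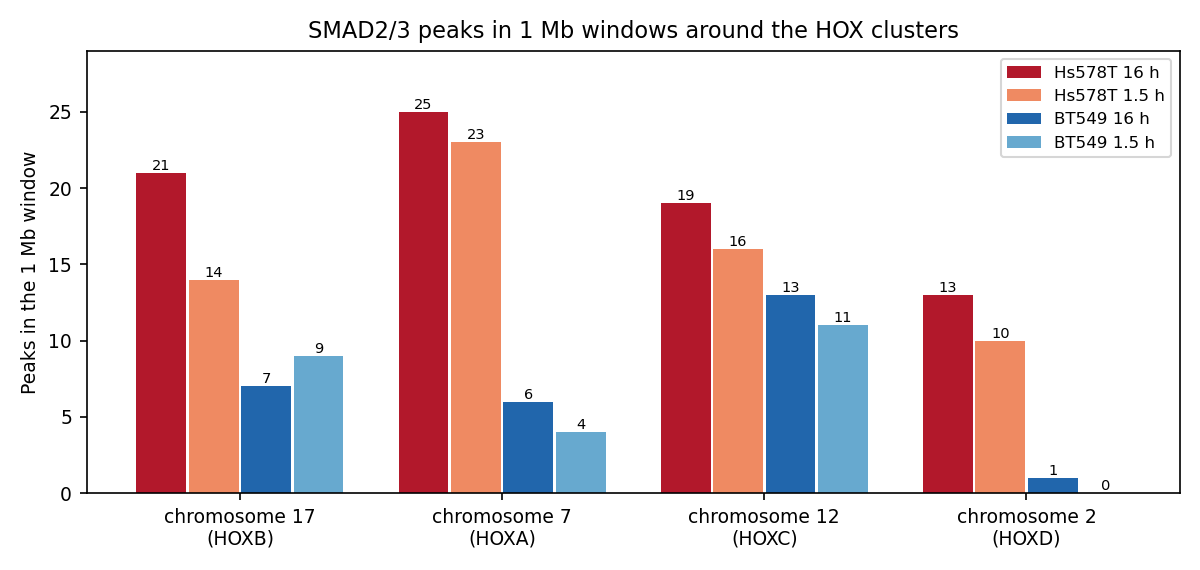
Number of SMAD2/3 peaks in 1 Mb windows around the 4 HOX clusters, with 1 bar per library. The HOXB window of chromosome 17 held 21, 14, 7 and 9 peaks, with both Hs578T bars above both BT549 bars, as in the other windows.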

How the data were processed

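SMAD2/3 ChIP-seq peak lists of 4 libraries, 1 per cell line and time, were used as deposited, on hg19. The tools named are Bowtie 1.1.0, MACS 1.4.2 and Picard, per the submitters' processing notes. What each was used for, and whether the input DNA served as background, is not given in the sources used here. A score was deposited for each peak, which is the authors' peak-caller value. Its lowest values, 50.01 and 50.02, fit 10 times the negative log10 of p at a threshold of 1e-05. Peaks were called per sample. Read totals were not used here, so a longer list or higher score can come from depth.

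Positions are given from 1. Peaks belonged to the window by midpoint. Overlap meant at least 1 bp, regions were peaks that overlapped or touched, and shares have exact (Clopper-Pearson) 95% intervals. Each chromosome was taken to reach to its last listed peak. The code was tested on simulated lists. Regions listed in 2 or more libraries, the 5 highest-score peaks of each library and peaks scoring at least 100 were to be named. The other peaks named were chosen after their values were seen. The window, the lists and the words searched were chosen with earlier results of these data known. No test between conditions was made. Python 3.11.15, numpy 2.4.6, scipy 1.17.1 and matplotlib 3.10.9 were used.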

Additional observations from a re-analysis of the deposited data

Results flagged for a closer look

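With all listed peaks, the lines moved in opposite directions in the HOXB window from 1.5 h to 16 h. In Hs578T the peak number at 16 h over that at 1.5 h was 1.50, and the covered length at 16 h over that at 1.5 h was 2.21. In BT549 the ratios were 0.500 and 0.631. Over the whole lists the ratios of peak number were 1.35 and 0.884 and those of covered length 1.64 and 0.876, so the direction was that of each list as a whole. The difference between the lines was not tested, since each has 1 library per time, and the BT549 ratio of peak number rests on 3 and 6 peaks. With scores of at least 100, BT549 held 1 peak at each time. With lists of equal length it held 1 at 16 h and 0 at 1.5 h. The fall in BT549 was thus not seen with these settings.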

How the results depend on the processing

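Of 119 recomputed values, 87 stayed within 1.5 times the value reported, among them each recomputed with the window widened by 50 kb, with membership by any overlap, with peaks within 500 bp counted as 1 or as overlapping, and with chromosome 17 as the background. With scores of at least 100 in every list, Hs578T kept 12 peaks at 16 h and 5 at 1.5 h, of which 4 and 4 overlapped the other time, and BT549 kept 1 at each time, which overlapped each other. At 16 h, 1 BT549 peak then overlapped Hs578T, and at 1.5 h the lines shared 0 peaks in either direction. Merged regions numbered 13, of which 4 were at both Hs578T times, 1 at both BT549 times, 1 in both lines and 0 in all 4 libraries. When 50% of both peaks had to overlap, 1 BT549 peak overlapped Hs578T at 16 h, 0 in either direction at 1.5 h, and 0 regions were in all 4 libraries. With only as many peaks taken from each list as the shortest holds, by score, BT549 kept 1 peak at 16 h and 0 at 1.5 h, so that 0 overlapped between its times and 0 regions were held at both. Then 1 BT549 peak overlapped Hs578T at 16 h, 0 in either direction at 1.5 h, 1 region was in both lines and 0 in all 4 libraries. With peaks of at least 150 bp, Hs578T kept 8 peaks at 1.5 h, of which 1 overlapped BT549. With scores of at least 100, 16 values left the range of 1.5 times and 1 stayed. With lists of equal length, 10 left it and 7 stayed. The settings of these losses leave fewer peaks or ask for a stricter overlap. The region at 46621803 is split into several calls in some lists, so its count in all 4 libraries rests on the overlap of 1 bp. Depth, which is unknown, limits every count here. No paired analysis was possible because the values come from no test and each group has 1 library, numbered 1, so no pair of groups shares 2 replicate numbers.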
